A study of Mus musculus with 64 samples.

Results

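The prefrontal cortex (PFC) of mice was compared 4 weeks after a single injection of psilocybin or of vehicle. The comparison used 15 of the 64 RNA sequencing libraries of the series, 7 from psilocybin-treated and 8 from vehicle-treated mice, chosen by the labels for region, treatment and harvest time. An eighth psilocybin library, from cage 3, held 200066 counted reads and was left out. All animals were wild type, group-housed, chow-fed male C57BL/6J mice, 10 weeks old at injection and sham-injected with saline on the days before. Psilocybin was injected intraperitoneally at 3 mg/kg and the vehicle was isotonic saline. The mice were decapitated in the morning, 4 h into the light phase, and each gave both a PFC sample, called frontal cortex in part of the labels, and a whole hypothalamus. RNA was extracted in pools, C for cages 1 to 4 and D for cages 5 to 8, and each cage number is present in both treatment groups. The tissue was read in bulk, so fewer cells of a type and less RNA per cell cannot be told apart. The comparison addresses whether the PFC transcriptome still differed long after the drug was gone.

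Psilocybin is dephosphorylated in the body to psilocin, an agonist at several serotonin receptors. Its psychedelic effects are attributed to 5-HT2A, a receptor that couples to Gq and is dense on the apical dendrites of deep-layer pyramidal neurons of the cortex. Strong activation of these neurons induces immediate early genes within minutes to hours, and psychedelics are studied for longer-lasting growth of dendritic spines, in which the neurotrophin BDNF and its receptor TrkB are thought to take part. For that reason the genes of serotonin receptors, neurotrophins, activity-dependent transcription and synapses are described first, followed by the cell type markers and the genes with the smallest p-values.

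The 7 psilocybin libraries held between 12934897 and 33019782 counted reads (median 23878219) and the 8 vehicle libraries between 10547607 and 70361839 (median 19271125). Levels are given in counts per 1000000 counted reads (CPM), scaled with TMM factors, and each library is named by its group and cage. Markers of other tissues stood apart in single libraries, most of them vehicle libraries. Summed over 24 genes known for their expression in liver (albumin, fibrinogen chains, apolipoproteins and others, a list written after these values were seen), vehicle 8 had 1780 CPM and vehicle 6 had 957.5 CPM, against 1.30 to 6.57 CPM in the other 6 vehicle libraries and 2.26 to 23.2 CPM in the 7 psilocybin libraries. Alb alone, which encodes albumin, had 1099 CPM in vehicle 8, 590.9 CPM in vehicle 6 and 15.4 CPM in psilocybin 7. The summed level of 12 striatal genes, among them the dopamine receptor genes Drd1 and Drd2, was 2810 CPM in vehicle 6, 1276 CPM in psilocybin 6 and 1201 CPM in vehicle 7. It lay between 364.5 and 721.0 CPM in the other 12 libraries. Summed over 13 hypothalamic genes, vehicle 3 had 29.9 CPM and psilocybin 7 had 16.8 CPM, and the other 13 libraries had between 3.69 and 10.1 CPM. Both extraction pools were represented in both groups and differed strongly in cell type markers. The sum of 16 oligodendrocyte genes lay between 2661 and 3126 CPM in the 7 libraries of pool C and between 4755 and 6820 CPM in the 8 libraries of pool D. Pool was therefore a term of the model, and a number of results are also given without vehicle 3, 5, 6 or 8.

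**Figure D1:**
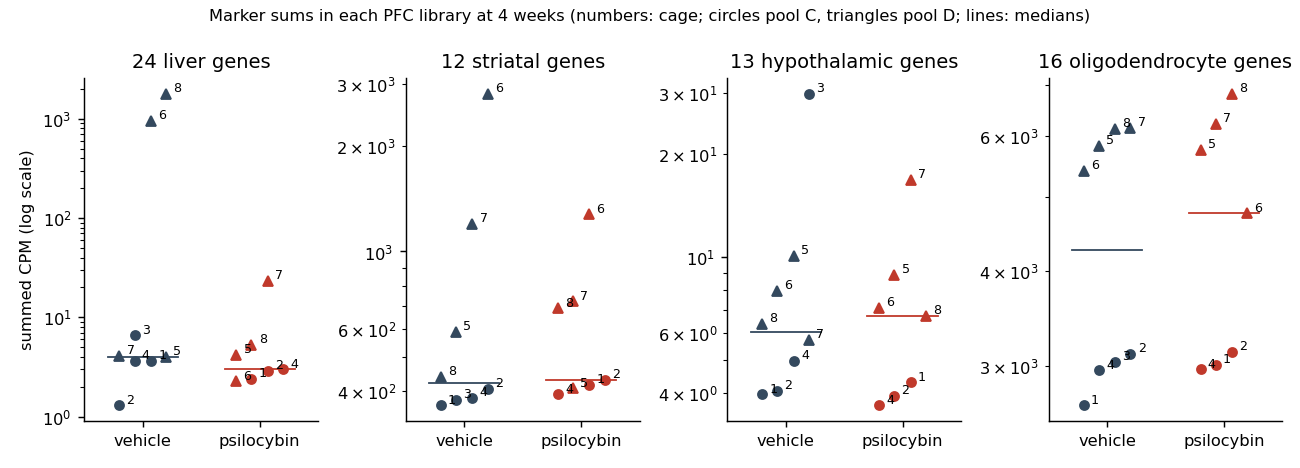
Summed CPM (log scale, a separate axis range in each panel) of liver, striatal, hypothalamic and oligodendrocyte genes in each of the 15 PFC libraries at 4 weeks, with the cage number beside each point, circles for extraction pool C, triangles for pool D and a line at each group's median. The liver sum is 957.5 CPM in vehicle 6 and 1780 CPM in vehicle 8, and the oligodendrocyte sums of pools C and D do not overlap.

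Defining markers of cortical excitatory neurons were high in all 15 libraries. Slc17a7, which encodes the vesicular glutamate transporter VGLUT1 of cortical excitatory neurons, lay between 1059 and 1505 CPM, and Camk2a, the alpha subunit of a calcium/calmodulin-dependent kinase of forebrain excitatory neurons, between 4274 and 5747 CPM. Neither differed detectably between the groups, with log2 fold changes of -0.04 (95% interval -0.62 to 0.53) for Slc17a7 and 0.03 (95% interval -0.18 to 0.23) for Camk2a.

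No gene passed the test at 4 weeks. Of 18971 genes tested, the quasi-likelihood F test of edgeR, adjusted by the method of Benjamini and Hochberg, called 0 (0%), with a smallest adjusted p of 0.287 (for Calcr, the calcitonin receptor gene). At an unadjusted p under 0.05 there were 456 genes (2.4%), 156 higher after psilocybin (0.822%) and 300 lower (1.58%). There was also no gene (0%) whose CPM values in the 7 psilocybin libraries lay entirely above or below those in the 8 vehicle libraries. The study's procedure (voom with quality weights and limma), run here on the same 62 libraries without dropping a further library that its methods exclude but the sources used here do not name, called 0 genes as well and had 952 at an unadjusted p under 0.05. DESeq2 called 19 genes (0.1%), 18 lower and 1 higher after psilocybin. Liver genes made up most of these, including Ambp, Mug1 and Plg, with 7.06, 6.11 and 14.1 CPM in vehicle 6 and 15.4, 13.4 and 22.1 CPM in vehicle 8. In each other library these 3 genes were at or under 0.22 CPM. The fitted fold change of such a gene depends on the prior count and is not given here. Without vehicle 6 and 8, a setting chosen after seeing the data, edgeR had 240 genes at an unadjusted p under 0.05 and called 1, Gabre, which is described with the GABA-A receptor subunits.

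The interval of each fold change shows what size of difference these libraries leave room for. The median standard error was 0.14 on the log2 scale over all genes tested and 0.12 over the 15473 genes with a mean of at least 1 CPM. Among the latter, the 95% interval lay within 2-fold in either direction for 97.4% of genes and within 1.5-fold for 84.4%. The median log2 fold change of all genes was -0.01, so the TMM scaling left the groups centred on each other.

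**Figure D2:**
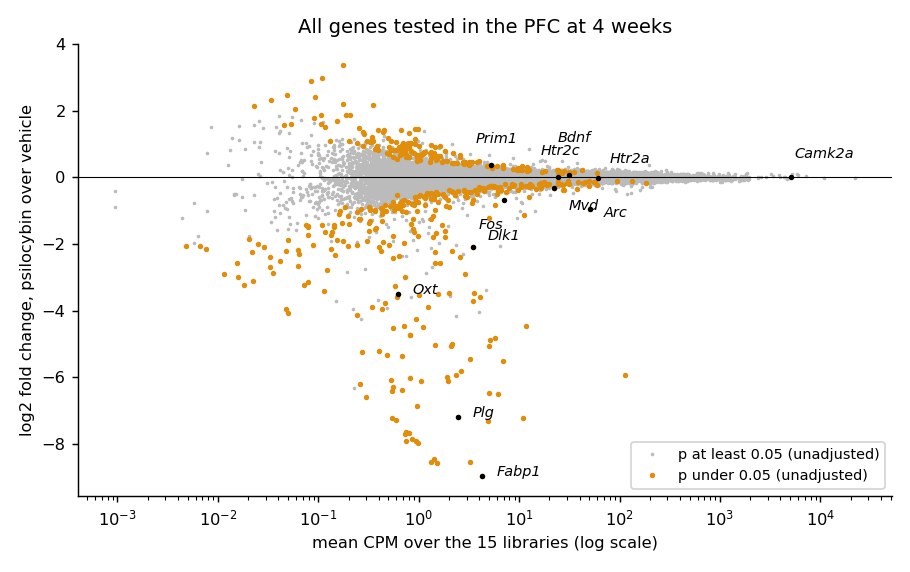
Each point is 1 of 18971 genes, with its mean CPM over the 15 libraries (log scale) against its log2 fold change of psilocybin over vehicle in the PFC at 4 weeks. Orange points are the 456 genes at an unadjusted p under 0.05, none of which passed the adjustment, and black points are named genes. The steep orange group at the bottom, with Plg and Fabp1, holds liver genes found in vehicle 6 and 8.

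Serotonin receptors, the direct targets of psilocin, did not pass the test. Of 14 receptor genes listed, 12 were tested, 3 with a positive and 9 with a negative log2 fold change, and none had an unadjusted p under 0.05. Their median log2 fold change was -0.06, beside -0.01 over all genes tested. Htr2a (chromosome 14, 74640840 to 74709494 in GRCm38), which encodes 5-HT2A, lay between 38.6 and 79.3 CPM after psilocybin (median 58.8) and between 40.3 and 95.03 CPM after vehicle (median 56.5). The lowest and highest libraries were psilocybin 7 and vehicle 1, the groups overlapped between 40.3 and 79.3 CPM with vehicle 1, 2 and 4 above every psilocybin library, and the values were mostly higher in pool C than in pool D in both groups. For Htr2a the log2 fold change was -0.01 (standard error 0.16, 95% interval -0.34 to 0.31, edgeR adjusted p = 1). In CPM per kb of exon, Htr2a had the highest level of the family, 10.7 after psilocybin and 11.2 after vehicle.

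Htr1a (chromosome 13, 105443639 to 105448122), the gene of the Gi-coupled receptor 5-HT1A to which psilocin also binds, lay between 15 and 28.5 CPM after psilocybin (median 17.2) and between 16.3 and 27.2 CPM after vehicle (median 20.6). The groups overlapped, and the log2 fold change was -0.08 (standard error 0.13, 95% interval -0.33 to 0.18). Htr2c (chromosome X, 146962513 to 147197274), whose product 5-HT2C shares much of the pharmacology of 5-HT2A, lay between 11.9 and 58.6 CPM after psilocybin and between 13.5 and 54.1 CPM after vehicle. Its highest values were those of cage 6 in both groups, psilocybin 6 and vehicle 6, which were also high in striatal genes. Htr2c had a log2 fold change of 0.01 (95% interval -0.53 to 0.56), a wide interval for a gene of this level. Per kb of exon, Htr1a had 4.38 CPM after psilocybin and 4.66 after vehicle, Htr5a 4.42 and 4.48, Htr3a 4.33 and 4.27, and Htr7 3.14 and 3.06. The library ranges of these 4 receptors overlapped. Smallest p-values in the family belonged to Htr7, with a log2 fold change of 0.03, on the higher side, and to Htr1d, with -0.59, on the lower. Htr1d had 6.47 CPM in vehicle 6, 3.55 CPM in psilocybin 6 and 3.06 CPM in vehicle 7, and 0.0439 to 1.27 CPM elsewhere.

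Neurotrophin genes did not pass the test either. Of 15 genes tested in this list, 9 had a positive and 6 a negative log2 fold change (median 0.01) and none had an unadjusted p under 0.05. Bdnf (chromosome 2, 109674700 to 109727007) lay between 27.6 and 40.04 CPM after psilocybin (median 29.4) and between 22.4 and 40.7 CPM after vehicle (median 30.4). The lowest values were those of vehicle 6 and 8 and the highest those of cage 2 in both groups. Bdnf had a log2 fold change of 0.07 (standard error 0.0900, 95% interval -0.11 to 0.25, edgeR adjusted p = 1). Ntrk2, which encodes TrkB, lay between 814.9 and 908.6 CPM after psilocybin and between 784.4 and 871.7 CPM after vehicle. With a log2 fold change of 0.05 (95% interval -0.09 to 0.20), it was among the more precisely measured genes named here. Ntrk3, the gene of the NT-3 receptor TrkC, had the smallest p-value of the list on the higher side, with a log2 fold change of 0.16 (95% interval -0.10 to 0.42).

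Immediate early genes are transcribed within minutes of strong synaptic input, when calcium entry activates the transcription factors CREB and SRF at their promoters. Among 27 tested, 8 had a positive and 19 a negative log2 fold change, with a median of -0.11 beside -0.01 over all genes tested. In this list 0 passed the test, and 3 had an unadjusted p under 0.05 (Arc, Jun and Junb, all lower after psilocybin; 1.58% of all genes tested did so in this direction). Vehicle libraries 3 and 5 were high in several of these genes at once. Without them the median of the list was 0.09, and without vehicle 3 alone it was -0.00883. Jun went from -0.21 to -0.13 and Junb from -0.59 to -0.11 without vehicle 3 and 5, both with unadjusted p-values above 0.05. Promoters of a pair of them are shown because CREB binds the core motif TGACG, which is in capitals on either strand. The windows hold 250 bases before and 50 bases after the transcription start in RefSeq, build GRCm38.p6, written in the direction of transcription, Fos at chr12:85473640-85473939 on the plus strand and Npas4 at chr19:4989922-4990221 on the minus strand.
Fos: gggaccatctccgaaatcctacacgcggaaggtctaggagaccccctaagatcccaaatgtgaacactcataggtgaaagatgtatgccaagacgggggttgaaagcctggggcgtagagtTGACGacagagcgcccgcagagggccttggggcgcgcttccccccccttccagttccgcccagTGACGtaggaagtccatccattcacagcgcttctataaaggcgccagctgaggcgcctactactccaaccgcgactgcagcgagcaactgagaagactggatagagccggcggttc
Npas4: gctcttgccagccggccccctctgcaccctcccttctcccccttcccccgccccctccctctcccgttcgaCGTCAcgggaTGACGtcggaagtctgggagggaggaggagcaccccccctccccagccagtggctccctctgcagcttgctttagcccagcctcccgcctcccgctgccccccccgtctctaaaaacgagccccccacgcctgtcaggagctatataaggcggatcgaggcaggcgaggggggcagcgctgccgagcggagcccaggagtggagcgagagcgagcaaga

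Each of these windows holds 2 copies of the core motif, which lie 129 and 66 bases before the start in Fos and 179 and 169 bases before it in Npas4. Read in the direction of transcription a copy on the other strand is CGTCA. Of 32851 promoter windows of this length in the same table, 20.8% hold at least 1 copy on either strand and 5.01% at least 2. The match describes the letters only, and binding was not measured.

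Arc (chromosome 15, 74669083 to 74672568), whose product regulates AMPA receptor endocytosis at active synapses, lay between 23.4 and 37.9 CPM after psilocybin (median 30.4) and between 19.6 and 249.8 CPM after vehicle (median 35.9). Vehicle 3, with 249.8 CPM, and vehicle 5, with 99.6 CPM, were above all other libraries, and the other 6 vehicle libraries, up to 37.7 CPM, overlapped the psilocybin group. Arc had a log2 fold change of -0.96 (standard error 0.39, 95% interval -1.75 to -0.18, unadjusted p = 0.0172, edgeR adjusted p = 1). Without vehicle 3 and 5 it was 0.03.

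Fos (chromosome 12, 85473890 to 85477273), a subunit of the transcription factor AP-1, lay between 3.28 and 8.52 CPM after psilocybin (median 5.16) and between 3.25 and 21.6 CPM after vehicle (median 4.78). Again vehicle 3 and vehicle 5, with 21.6 and 18.5 CPM, stood above the rest, and the remaining vehicle libraries lay within the psilocybin range or just below it. Fos had a log2 fold change of -0.69 (95% interval -1.46 to 0.08) and of 0.22 without vehicle 3 and 5. Npas4 (chromosome 19, 4984355 to 4989971), a neuron-specific factor induced by calcium, had 33.5 CPM in vehicle 3 and 19.2 CPM in vehicle 5. Its other libraries lay between 7.12 and 16.2 CPM, and its log2 fold change was -0.36 (95% interval -0.76 to 0.05), or 0.09 without vehicle 3 and 5. Egr1, a zinc finger factor with a high basal level in cortex, did not share the pattern to the same degree. It had its highest value, 230.0 CPM, in psilocybin 2, followed by 198.0 CPM in vehicle 3, and a log2 fold change of -0.02 (95% interval -0.45 to 0.41). Fosl2 had the smallest p-value on the higher side, with a log2 fold change of 0.24 (95% interval -0.04 to 0.53).

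**Figure D3:**
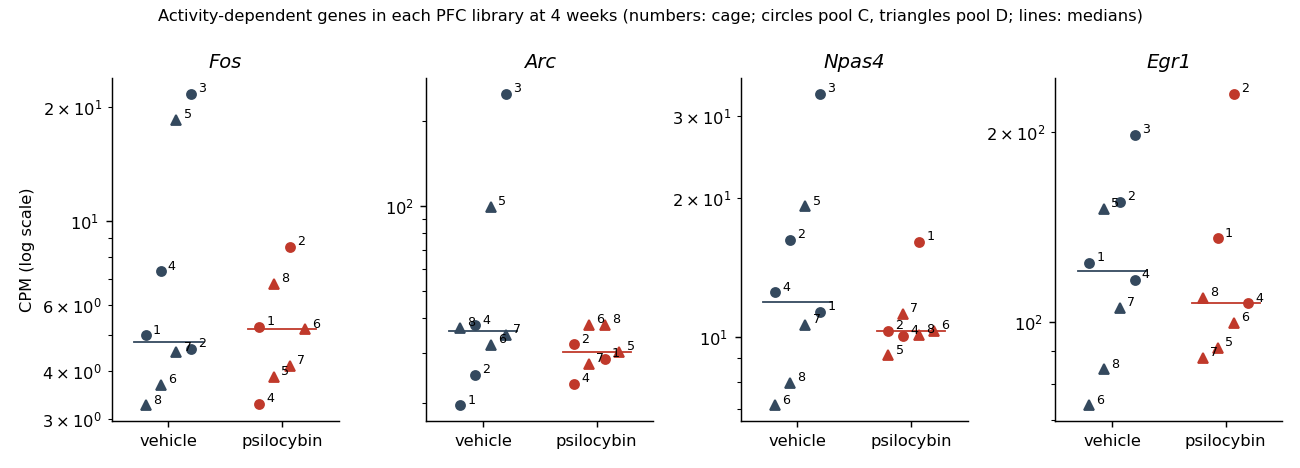
CPM (log scale, a separate axis range in each panel) of Fos, Arc, Npas4 and Egr1 in each PFC library at 4 weeks, with the cage number beside each point, circles for extraction pool C, triangles for pool D and a line at each group's median. Vehicle 3 and vehicle 5 are the highest libraries for Fos, Arc and Npas4, and psilocybin 2 is the highest for Egr1.

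Genes of the synapse lay close to zero change. Of 28 genes of the postsynaptic density and spine, 11 had a positive and 17 a negative log2 fold change, all between -0.14 and 0.15 with a median of -0.01. Dlg4, the scaffold protein PSD-95, lay between 767.4 and 941.6 CPM after psilocybin and between 842.9 and 1010 CPM after vehicle. The log2 fold change of -0.07 (95% interval -0.19 to 0.05) had one of the narrower intervals among the named genes. Homer2, another scaffold, was at 0.15 (95% interval -0.08 to 0.39). Of 26 vesicle and release genes, 4 had a positive and 22 a negative value with a median of -0.04. Syn1, which tethers vesicles, had -0.06 (95% interval -0.22 to 0.11), and Snap25, a SNARE protein of release, 0.04 (95% interval -0.17 to 0.25). Syt4 and Syt2, members of the synaptotagmin family, had the smallest p-values of the list on either side, with 0.09 and -0.20. Of 27 adhesion genes, 19 were positive and 8 negative with a median of 0.02. Nptn (0.02, 95% interval -0.14 to 0.18) and Negr1 (0.06, 95% interval -0.17 to 0.29), immunoglobulin-type adhesion molecules, and Lrrtm4 (0.19) and Lrrtm1 (-0.13), leucine-rich repeat partners of neurexins, had unadjusted p-values above 0.05. No member of these 3 lists had an unadjusted p under 0.05.

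Ionotropic glutamate receptor subunits were split evenly, 8 positive and 8 negative of 16 (median 0.00310), from -0.12 for Grik5 to 0.23 for Grin3b. Gria1, an AMPA receptor subunit, lay between 305.9 and 462.1 CPM after psilocybin and between 339.3 and 440.5 CPM after vehicle. This gave a log2 fold change of -0.00639 (95% interval -0.16 to 0.14). Grin2b, an NMDA receptor subunit, had 0.12 (95% interval -0.21 to 0.45), and Grin2a 0.14 (95% interval -0.15 to 0.43). Among 7 metabotropic receptors, the autoreceptor gene Grm2, whose product forms complexes with 5-HT2A in heterologous cells, had -0.06 (95% interval -0.36 to 0.24). Grm4 was at -0.17, and the median of the list was -0.00232.

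GABA-A receptor subunits held 11 positive and 3 negative values of 14 (median 0.03). Gabra2, an alpha subunit, had a log2 fold change of 0.17 (95% interval -0.06 to 0.39). The negative values of size belonged to the rare subunits Gabre and Gabrq, which are expressed in hypothalamus and brainstem. Gabre (chromosome X, 72255999 to 72274803) lay between 0 and 0.319 CPM after psilocybin (median 0.123) and between 0 and 2.85 CPM after vehicle (median 0.442). Vehicle 3, high in hypothalamic genes, held the 2.85 CPM, the next vehicle library had 0.779 CPM, and the groups overlapped. Gabre had a log2 fold change of -2.20 (standard error 0.57, 95% interval -3.34 to -1.07, edgeR adjusted p = 0.491). DESeq2 called it (adjusted p = 0.0319). edgeR's quasi-likelihood test called it without vehicle 6 and 8 (adjusted p = 0.0401), a setting chosen after seeing the data. Those are the vehicle libraries lowest in Gabre, at 0 and 0.0417 CPM. Leaving them out raises the vehicle level, so this call is not separate support. Without vehicle 3 and 6 the log2 fold change was -1.20. Gabrq had 11.3 CPM in its highest vehicle library against at most 2.02 CPM after psilocybin, and an unadjusted p of 0.0457. Its log2 fold change of -0.85 turned to 0.51 without vehicle 3.

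Genes of the perineuronal net and extracellular matrix, which surrounds parvalbumin interneurons and limits plasticity in the adult, were 12 positive and 8 negative of 20 (median 0.02). Mmp9, a protease that cleaves matrix proteins, lay between 1.13 and 1.93 CPM after psilocybin (median 1.46) and between 0.510 and 1.79 CPM after vehicle (median 1.03). The groups overlapped, and 5 vehicle libraries were below the lowest psilocybin library. With a log2 fold change of 0.47 (95% interval 0.04 to 0.89, unadjusted p = 0.0324), it was the only member of the list at an unadjusted p under 0.05. Over all genes tested, 0.822% did so in this direction. Bcan, which encodes the net component brevican, had -0.08 (95% interval -0.26 to 0.11).

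Clock genes give a check on the time of day of harvest, since their transcripts cycle over the day. They were 9 positive and 9 negative of 18, with a median of -0.00330, and no member had an unadjusted p under 0.05. Per2, a repressor of the loop, had 0.19 (95% interval -0.04 to 0.42) and Nr1d1, which encodes REV-ERB alpha, -0.11 (95% interval -0.26 to 0.04). Glucocorticoid receptors and targets were 8 positive and 7 negative of 15 (median 0.01), with Nr3c2, the mineralocorticoid receptor gene, at 0.10 and Ddit4, a stress-induced inhibitor of mTORC1, at -0.16. Their unadjusted p-values were 0.329 and 0.198.

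Dopamine, histamine and noradrenaline receptors were 2 positive and 11 negative of 13 (median -0.09), and 0 had an unadjusted p under 0.05. Drd2 had 76.3 CPM in vehicle 6, 22.8 CPM in psilocybin 6 and 20.3 CPM in vehicle 7, the same 3 libraries that were highest in the striatal sum, and 0.527 to 10.9 CPM elsewhere. Drd2 had a log2 fold change of -1.02 (95% interval -2.37 to 0.33) and 0.34 without vehicle 3 and 6. Adra2a, an autoreceptor of noradrenaline, had 0.04 (95% interval -0.22 to 0.29). Neuropeptide genes were 4 positive and 11 negative of 15 (median -0.14). Among them Pdyn, the prodynorphin gene, lay between 26.6 and 44.3 CPM after psilocybin (median 31.1) and between 28.3 and 81.8 CPM after vehicle (median 35.7). Cage 6 again held the highest value of each group. Pdyn had a log2 fold change of -0.36 (95% interval -0.66 to -0.05, unadjusted p = 0.0230) and -0.16 without vehicle 3 and 6. Pthlh was at 0.16.

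All 18 glycolysis genes tested had a negative log2 fold change, and all were small, from -0.09 for Eno1 to -0.00295 for Slc2a3, with a median of -0.04 beside -0.01 over all genes tested. None had an unadjusted p under 0.05. Hk1, the main brain hexokinase, lay between 343.8 and 452.0 CPM after psilocybin and between 374.6 and 456.2 CPM after vehicle, and its log2 fold change was -0.08 (95% interval -0.21 to 0.05). Within pool C the list's median was -0.01 and within pool D -0.07. Of 8 mitochondrially encoded genes tested, 6 were positive (median 0.03). Among these, mt-Cytb, which encodes cytochrome b of complex III, lay between 7553 and 13900 CPM after psilocybin and between 7009 and 14750 CPM after vehicle. The log2 fold change of mt-Cytb was -0.02 (95% interval -0.26 to 0.21), and that of mt-Nd3 was 0.23 (95% interval -0.47 to 0.92).

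Cell type markers of cortex also had medians near zero. Excitatory neuron genes were 7 positive and 12 negative of 19 (median -0.01), with Etv1 at 0.15 and Sulf1 at -0.13, neither with an unadjusted p under 0.05. Interneuron genes were 6 positive and 10 negative of 16 (median -0.03). Pvalb, which marks fast-spiking basket cells, lay between 46.9 and 63.96 CPM after psilocybin and between 41.0 and 74.1 CPM after vehicle, with a log2 fold change of -0.04 (95% interval -0.50 to 0.43). Sst, of dendrite-targeting interneurons, had -0.15 (95% interval -0.52 to 0.22), and Dlx1 0.17. Slc32a1, the vesicular GABA transporter gene, had 79.4 CPM in vehicle 6 and 65.9 CPM in vehicle 3 and 37.3 to 60.0 CPM elsewhere. Its log2 fold change was -0.27 (95% interval -0.53 to -0.02, unadjusted p = 0.0346) and -0.08 without vehicle 3 and 6.

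Oligodendrocyte genes were 13 positive and 3 negative of 16, with a median of 0.12 beside -0.01 over all genes tested. Ugt8a, an enzyme of myelin galactolipid synthesis, had 0.21 (95% interval -0.12 to 0.54) and Olig1, a lineage factor, -0.13 (95% interval -0.41 to 0.14). The median was 0.02 within pool C and 0.11 within pool D, and no member had an unadjusted p under 0.05. Medians were 0.01 for 9 genes of oligodendrocyte precursors, -0.01 for 14 astrocyte genes, -0.05 for 13 microglia genes, -0.09 for 12 endothelial genes and -0.15 for 16 mural and meningeal genes. In these 5 lists, Enpp6 (0.17) and Cspg4 (-0.07), Aqp4 (0.09) and Agt (-0.45), Sall1 (0.12) and Csf1r (-0.08), Itm2a (0.02) and Kdr (-0.17), and Acta2 (0.26) and Myh11 (-0.27) had the smallest p-values in each direction. No member had an unadjusted p under 0.05. All 6 blood genes were positive, from 0.38 for Hbb-bs, a beta globin gene, to 0.79 for Slc4a1, and their summed CPM ran from 115.4 to 722.2 after psilocybin and from 90.4 to 525.4 after vehicle. None of the 6 had an unadjusted p under 0.05.

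Markers of other brain regions and tissues were less even. All 12 striatal genes had negative log2 fold changes (median -0.46), and without vehicle 3 and 6 their median was 0.05. Isl1, a factor of striatal projection neurons, had 5.46 CPM in vehicle 6, 2.66 CPM in psilocybin 6 and at most 1.62 CPM elsewhere. Olfactory genes were 9 positive and 1 negative of 10 (median 0.43), led by Scgn, with 9.23 CPM in psilocybin 7 and 0 to 1.83 CPM in the other libraries. Synpr, of the same list, had -0.00241. Without psilocybin 7 the olfactory median turned to -0.51, and it was -0.11 in the study's procedure, 0.12 in the 15 libraries alone and -0.05 within pool C. Hypothalamic genes had a median of -0.63, and 0.36 without vehicle 3 or 0.55 without vehicle 3 and 6. Of 13 tested, 5 had an unadjusted p under 0.05, Oxt, Gal, Otp and Nkx2-1 lower and Hdc higher after psilocybin, beside 2.4% of all genes. Oxt, the oxytocin gene, had 7.63 CPM in vehicle 3 and 0 to 0.375 CPM in the other 14 libraries. Hdc, the enzyme of histamine synthesis, lay between 0.452 and 3.36 CPM after psilocybin and between 0.346 and 1.12 CPM after vehicle, highest in psilocybin 7. Thalamic genes had a median of 0.08, with Zic1 at 0.17 and Gbx2, at or under 0.52 CPM in every library, at -1.73. Choroid plexus genes had a median of -0.25, and -0.0184 without vehicle 3, with Folr1 at 0.66 and with Prlr, described among the lowest p-values, as the member at an unadjusted p under 0.05. Immune and wound healing genes had a median of -0.14, with S100a8 at 0.98 and Timp1 at -0.60, and no member at an unadjusted p under 0.05.

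**Figure D4:**
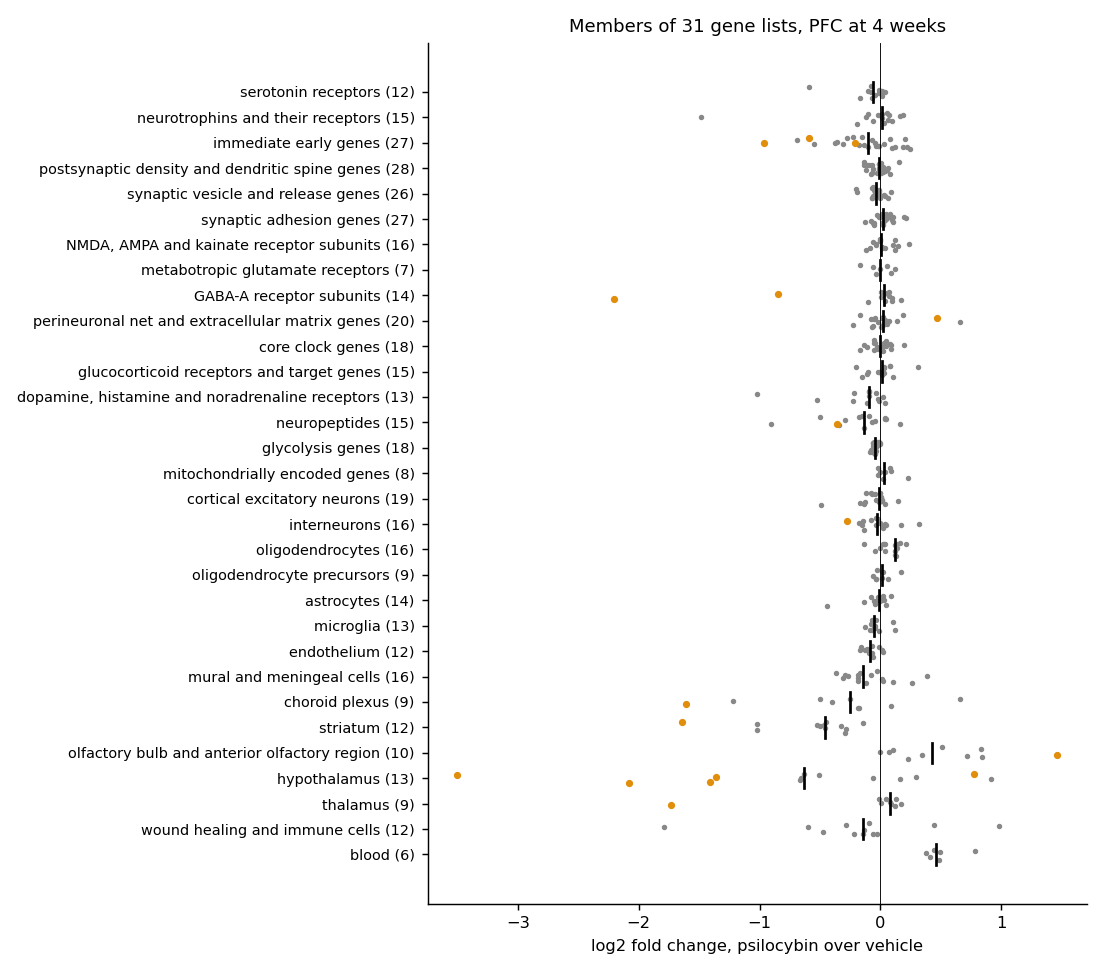
Log2 fold change of psilocybin over vehicle in the PFC at 4 weeks for each tested member (points) of 31 gene lists, with the number tested after each name and a black line at each median. Orange points have an unadjusted p under 0.05. Receptor, synapse and metabolism lists lie close to zero, while the striatal, olfactory, hypothalamic and blood lists have medians of -0.46, 0.43, -0.63 and 0.46. The olfactory median is -0.51 without psilocybin 7, the striatal 0.10 without vehicle 6 and the hypothalamic 0.36 without vehicle 3.

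Among genes with a higher level after psilocybin, the 6 with the smallest p-values had log2 fold changes from 0.23 to 0.93. Prim1 (chromosome 10, 128015168 to 128029983), the small subunit of DNA primase, lay between 4.54 and 7.99 CPM after psilocybin (median 6.05) and between 3.78 and 5.06 CPM after vehicle (median 4.60). The 5 highest libraries were psilocybin 2, 5, 6, 7 and 8, while psilocybin 1 and 4 lay within the vehicle range. The log2 fold change was 0.37 (standard error 0.12, 95% interval 0.13 to 0.62, unadjusted p = 0.00355, edgeR adjusted p = 1). It was 0.24 within pool C and 0.46 within pool D. Metap1d (chromosome 2, 71453276 to 71525191), a mitochondrial methionine aminopeptidase, lay between 23.3 and 30.4 CPM after psilocybin and between 18.9 and 24.8 CPM after vehicle, with a log2 fold change of 0.23 (95% interval 0.06 to 0.41). It overlaps Dlx1as on the other strand. The libraries were stranded and read pairs had to map with both ends to one strand, but whether a pair was matched to the strand of the gene is not given in the sources used here. Mthfd2l, a mitochondrial enzyme of one-carbon metabolism, had 0.35, and Knstrn, a kinetochore protein, 0.58. Lrrc23, a ciliary protein, had 5.18 CPM in psilocybin 7 and 2.52 CPM in psilocybin 8, against 0.534 to 1.40 CPM in the other 13 libraries, and a log2 fold change of 0.91. Uhrf1, which maintains DNA methylation in dividing cells, had 0.93, with 2.85, 1.97 and 1.70 CPM in psilocybin 5, 8 and 7 and at most 1.08 CPM elsewhere.

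On the lower side, all 6 genes with the smallest p-values were at their highest in vehicle 3. Dlk1 (chromosome 12, 109452823 to 109460618), a Notch-family protein of hypothalamic and endocrine cells, lay between 0.231 and 2.58 CPM after psilocybin (median 1.05) and between 0.173 and 18.1 CPM after vehicle (median 2.01). Vehicle 3 had 18.1 CPM, vehicle 6 had 13.6 CPM and vehicle 7 had 4.49 CPM, and the other 5 vehicle libraries overlapped the psilocybin group. The log2 fold change was -2.09 (standard error 0.49, 95% interval -3.08 to -1.10, unadjusted p = 8.87e-05, edgeR adjusted p = 0.491), and -0.30 without vehicle 3 and 6. Gpr101, an orphan receptor gene of the hypothalamus, had 8.36 CPM in vehicle 3 and 5.40 CPM in vehicle 6, and its log2 fold change went from -1.79 to -0.29. Arhgap36 had 9.61 CPM in vehicle 3 and at most 2.08 CPM elsewhere, and its log2 fold change went from -1.79 to -0.12 without vehicle 3 and 6. Dgkk, a diacylglycerol kinase, had 10.8 CPM in vehicle 3 and at most 2.97 CPM elsewhere, and its log2 fold change went from -1.68 to 0.36. Prlr, the prolactin receptor gene, had 7.57 CPM in vehicle 3 and 6.29 CPM in vehicle 8, against 0.461 to 1.96 CPM in the other 13 libraries. Its log2 fold change was -1.61, with -1.02 without vehicle 3, -1.25 without vehicle 8 and -1.06 without vehicle 3 and 6.

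Ankrd55 (chromosome 13, 112288451 to 112384002), an ankyrin repeat gene without a settled role in neurons, was the gene of these 6 whose log2 fold change moved least without vehicle 3 and 6. It lay between 2.42 and 3.17 CPM after psilocybin (median 2.74) and between 2.43 and 5.00 CPM after vehicle (median 3.66). Apart from vehicle 6, at 2.43 CPM, and vehicle 4, which was level with psilocybin 2, every vehicle library was above the highest psilocybin library. The log2 fold change was -0.43 (standard error 0.13, 95% interval -0.68 to -0.18, unadjusted p = 0.00119, edgeR adjusted p = 1). It was -0.58 within pool C, -0.28 within pool D and -0.42 without vehicle 3 and 6. Gm48837 overlaps it on the other strand.

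The genes called in the PFC at 3 h were then followed to 4 weeks. These comparisons share no library, since the 3 h mice were others. The direction at 3 h is that given by the treatment labels of the deposited columns. The sources used here do not settle whether these labels are right, and every sign at 3 h and each difference from 3 h below depends on them. edgeR's quasi-likelihood test called 2 genes at 3 h, Hrh1 and Zcchc10. Hrh1 (chromosome 6, 114397936 to 114482404), which encodes the histamine H1 receptor, had a log2 fold change of -0.49 at 3 h (standard error 0.0758, edgeR adjusted p = 0.000353). At 4 weeks it lay between 17.8 and 21.0 CPM after psilocybin (median 19.1) and between 16.3 and 23.4 CPM after vehicle (median 21.4). The psilocybin range lay inside that of vehicle, and the log2 fold change was -0.09 (standard error 0.0791, 95% interval -0.25 to 0.07). The difference between the time points was 0.40 (standard error 0.11, unadjusted p = 0.000523, edgeR adjusted p = 1 over all genes). Zcchc10, a zinc finger gene, had 0.56 at 3 h and 0.11 (95% interval -0.12 to 0.34) at 4 weeks, a difference of -0.45 (standard error 0.16, unadjusted p = 0.00682).

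The study's procedure, run here on the deposited labels, called 1551 genes at 3 h (8.18% of 18971), 1149 higher and 402 lower after psilocybin. This split is opposite in direction to the one that the paper reports. For all 1551 the mean log2(CPM + 0.5) of the 3 h libraries differed between psilocybin and vehicle in the fitted direction. At 4 weeks edgeR's quasi-likelihood test called 0 of them, and 8 had an unadjusted p under 0.05, beside 2.4% of all genes. Their median log2 fold change was 0.32 at 3 h and 0.07 at 4 weeks for the genes higher at 3 h, and -0.25 and -0.04 for those lower at 3 h. In direction, 1326 of the 1551 (85.5%) had the sign of 3 h at 4 weeks, beside 61.7% of all genes tested. If the treatment labels at 3 h were exchanged, the share would be 14.5%. The share varied with the libraries used. It was 86.7% with the cage as a replicate block, 87.0% in the study's procedure and 84.7% in the 15 libraries alone. With 1 library left out at a time it ran from 70.5%, without vehicle 3, to 92.5%, without psilocybin 1. Without vehicle 3 and 6 it was 48.1%, beside 50.7% of all genes, and without vehicle 6 and 8 it was 60.7%, beside 53.5%. Without vehicle 3 and 6 the medians at 4 weeks were -0.00378 for the genes higher at 3 h and 0.000115 for those lower. Within pool C the share was 69.3%, and within pool D, which holds vehicle 6 and 8, it was 84.6%. Genes of a tissue move together within a library, so the 1551 genes are not independent of each other and the share carries no test. Vehicle 3 and 6 are also the libraries highest in the hypothalamic and striatal sums, and the part of these sums in the share was not tested.

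**Figure D5:**
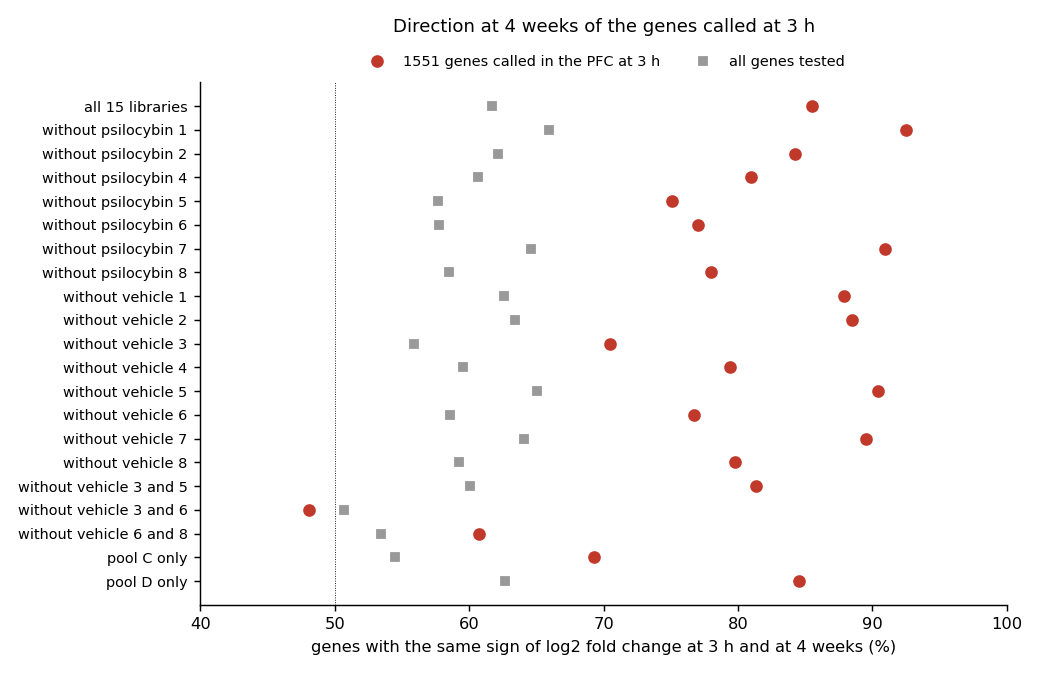
Percent of genes whose log2 fold change at 4 weeks had the same sign as at 3 h in the PFC, for the genes that the study's procedure called at 3 h (red circles, up to 1551 in a fit) and for all genes tested (grey squares), with all 15 libraries, with 1 or 2 left out, and within each extraction pool. The red point is at 85.5% with all libraries and at 48.1% without vehicle 3 and 6, and the dotted line marks equal shares of both signs.

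Whether the effect at 4 weeks differed from that at 3 h was tested for all genes. edgeR called 0 of 18971 (0%), with 585 at an unadjusted p under 0.05, DESeq2 called 4 and the study's procedure 1. The 4 DESeq2 genes were the liver genes Cyp2a4, Pon1, Ambp and Mug1, which at 4 weeks had 4.33 to 7.06 CPM in vehicle 6 and 4.54 to 15.4 CPM in vehicle 8 and at most 0.19 CPM in the other 13 libraries. The gene called by the study's procedure was Espl1 (chromosome 15, 102296266 to 102324357), which encodes separase, the protease that frees sister chromatids in mitosis. It had a log2 fold change of -0.79 at 3 h and 0.52 at 4 weeks in edgeR, a difference of 1.31 (standard error 0.33, unadjusted p = 0.000184). In the PFC at 4 weeks it lay between 1.39 and 2.18 CPM after psilocybin (median 1.81) and between 0.574 and 2.55 CPM after vehicle (median 1.04). Vehicle 6 held the 2.55 CPM, the other 7 vehicle libraries were at or under 1.503 CPM, and the groups overlapped. The adjusted p of the difference was 0.0251 in the study's procedure (limma) and 0.0467 in edgeR's quasi-likelihood test without vehicle 3 and 6. Those are the vehicle libraries highest in Espl1, at 1.503 and 2.55 CPM, and the setting was chosen after seeing the data. Leaving them out lowers the vehicle level, so the edgeR call is not separate support.

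Of the other genes with the smallest p-values for this difference, Cyb561d1 had -0.31 at 3 h and 0.05 at 4 weeks, Ucp3, a mitochondrial uncoupling protein gene, 0.44 and -0.26, and Insig1, which restrains sterol synthesis, 0.26 and -0.10. Prlr had 0.77 and -1.61. Their edgeR adjusted p-values were 1.

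The PFC was last compared with the hypothalamus of the same mice. The mouse was a block only in the study's procedure, so the edgeR and DESeq2 values ignore this pairing. For the difference between the effects at 4 weeks, edgeR called 0 genes (0%), with 1269 at an unadjusted p under 0.05, and DESeq2 called 64. Most of these 64 were liver genes, such as Alb, Apoa1 and Serpinc1, with their highest PFC values in vehicle 6 and 8. The 1269 became 538 without psilocybin 5 of the hypothalamus, 650 in the study's procedure and 647 without PFC vehicle 6 and 8. The 3 genes with the smallest p-values on the lower side were the liver genes Cps1, Fabp1 and Plg. Cps1, the first enzyme of the urea cycle, had 20.3 CPM in vehicle 6 and 34.6 CPM in vehicle 8 of the PFC and 0 to 0.829 CPM in the other 13 libraries, and Fabp1 had 14.9 and 49.3 CPM there and 0 to 0.0405 CPM elsewhere. In the hypothalamus the summed liver genes were at 6742 CPM in psilocybin 3, 212.3 CPM in psilocybin 1 and 477.8 CPM in vehicle 6, against 5.45 to 32.8 CPM in the other 13 libraries. Cps1 had 167.1 CPM in psilocybin 3 and 6.61 CPM in psilocybin 1 of the hypothalamus, and at most 2.24 CPM in its other libraries. On the higher side, Fst, which encodes the activin antagonist follistatin, had a log2 fold change of 0.38 in the PFC (95% interval -0.03 to 0.78) and -0.82 in the hypothalamus, a difference of 1.20 (standard error 0.31, edgeR adjusted p = 0.216). Nr2c1, an orphan nuclear receptor gene, had 0.18 and -0.19, and Alox12b, a lipoxygenase gene, 0.23 and -0.56. Both differences had an adjusted p of at least 0.492.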

How the data were processed

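RNA sequencing was analysed in 64 libraries of 32 mice, and 62 with at least 1000000 counted reads were kept. Per the paper's methods and the labels, the authors made poly-A libraries with a stranded kit, aligned the reads to GRCm38 with STAR 2.7.2b on GENCODE gene models and counted them with featureCounts 1.6.2. The values the authors deposited are whole-number counts per gene, not normalized, for 55401 genes, and 0 columns of sample values were left unmapped. The gene start, end and length in the deposited table were used for coordinates.

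Counts were normalized by TMM, filtered with filterByExpr (minimum count 10, by group) and fitted with edgeR 4.0.16 (R 4.3.3) as group plus extraction pool within region over the 62 libraries. Genes with a Benjamini-Hochberg adjusted p under 0.05 were called. Standard errors and 95% intervals come from the quasi-likelihood F statistic. DESeq2 1.42.0 and the procedure of the study (limma 3.58.1 after voom with sample weights, animal as block, consensus correlation 0.0282, without its exclusion of a further library) were alternatives. The tests were tried on simulated data with known changes. No pair of libraries of a group differed by less than sampling noise (lowest chi-square per degree of freedom 4.58 in 49 pairs). Each library is 1 mouse. Library depth limits precision for genes with few counts.

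The cage number of the labels pairs the groups. Over 7 cages, deviations of same-cage libraries correlated at 0.00175 to 0.48, and at -0.32 to 0.20 after removal of extraction pool. A cage block was therefore run as an alternative.

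The comparison, gene lists and tests were chosen with earlier results of these data known. Named were the called genes, the 6 with the smallest p-values in each direction with a mean of at least 1 CPM, fixed genes of serotonin, plasticity, synapse and cell types, the member of each list with the smallest p in each direction, genes called at 3 h, and the 3 with the smallest p-values in each direction for both differences of effects. The liver, cholesterol and ciliary lists, and genes named to describe a list, were chosen after their values were seen. Some genes that these rules would name are not reported here.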

Additional observations from a re-analysis of the deposited data

Results flagged for a closer look

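In 266 groups of 7 or 8 PFC libraries, for named genes and summed lists, the gap between the highest or lowest library and its neighbour was compared with the range of its group, and 46 values exceeded Dixon's critical value. Chance gives about 1 in 20 groups only for normally distributed values in groups not chosen by their values. Many of these genes and lists were chosen with their values known, and the groups share libraries. The count is therefore not a comparison with chance. No cause of these values was tested.

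Vehicle 3 stood apart 8 times. It had 249.8 CPM of Arc, 33.5 CPM of Npas4, 9.61 CPM of Arhgap36, 10.8 CPM of Dgkk, 2.85 CPM of Gabre, 22.6 CPM of Agt and 7.63 CPM of Oxt, and its summed hypothalamic genes were 29.9 CPM.

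Vehicle 6 was far above its group in striatal and related genes. Drd2 was at 76.3 CPM there, Isl1 at 5.46 CPM, Htr1d at 6.47 CPM and Pdyn at 81.8 CPM, and the sums were 2810 CPM for striatum, 375.5 CPM for dopamine, histamine and noradrenaline receptors and 1215 CPM for neuropeptides. Slc4a1 (0.890 CPM) and Espl1 (2.55 CPM) were also highest in this library.

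Psilocybin 6, from the cage with the same number, stood apart in many of the same genes, with 58.6 CPM of Htr2c, 3.55 CPM of Htr1d, 44.3 CPM of Pdyn, 2.66 CPM of Isl1, 2.82 CPM of Gpr101 and 34.5 CPM of Sulf1, and 1276 CPM over the striatal genes. It was lowest in Dlg4, at 767.4 CPM.

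Psilocybin 7 had 9.23 CPM of Scgn, 5.18 CPM of Lrrc23, 2.07 CPM of S100a8 and 0.0405 CPM of Fabp1, which was at 0 in the other psilocybin libraries. Its sums were 412.0 CPM for olfactory genes, 16.8 CPM for hypothalamic genes, 1775 CPM for interneuron genes and 23.2 CPM for liver genes.

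Psilocybin 2 had 230.0 CPM of Egr1, 40.04 CPM of Bdnf and 21.0 CPM of Hrh1, with 715.4 CPM over endothelial genes, and psilocybin 1 had 16.1 CPM of Npas4 and 41.0 CPM of Cyb561d1. Nr1d1 was lowest in psilocybin 5, at 69.0 CPM, and Folr1 highest in psilocybin 8, at 1.08 CPM. Among vehicle libraries, vehicle 4 had 9.10 CPM of Acta2 and 11.5 CPM of Myh11, vehicle 5 had 1.83 CPM of Scgn, and vehicle 8 had 49.3 CPM of Fabp1 and 16970 CPM over postsynaptic density genes.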

How the results depend on the processing

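Of 3107 repeats of 99 named genes under other settings, 2963 kept their direction and their side of the threshold and 141, in 45 genes, changed sign. Calls at 4 weeks were 19 with DESeq2, 1 without extraction pool, 3 with all 64 libraries and, in a setting chosen after seeing the data as all those without 2 vehicle libraries were, 1 without vehicle 6 and 8. Unadjusted p-values under 0.05 numbered 240 in that fit, 952 in the study's procedure, 1961 with no filter, 136 with at least 10 counts in every library and 243 in the 31 PFC libraries. For the difference from 3 h, DESeq2 called 4, the study's procedure 1 and the fit without vehicle 3 and 6 also 1. For the difference from the hypothalamus DESeq2 called 64. Both genes that edgeR called at 3 h kept their sign (100%). Genes at few counts are limited by depth, and vehicle 3, 6 and 8 decided many values.

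With the cage as a replicate block no gene was called and no call changed, and Htr2c (-0.00119) and Egr1 (0.0170) changed sign.

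Log2 fold changes that changed sign follow. With all 64 libraries they were Htr2a 0.0593, Dlg4 0.0491, Camk2a -0.0126, Grm2 0.0790, Pvalb 0.16, Slc17a7 0.00919, Csf1r 0.0668, Itm2a -0.00541 and Synpr 0.0872. Without vehicle 6 and 8 they were Bdnf -0.0114, Snap25 -0.0402, Nptn -0.0190, Negr1 -0.00551, Gria1 0.0311, Htr7 -0.0334, mt-Nd3 -0.0101, Itm2a -0.0529, Synpr 0.0379, Zic1 -0.0350 and Fabp1 0.89. Without vehicle 3 and 6 they were Dgkk 0.36, Egr1 0.00280, Camk2a -0.00542, Snap25 -0.0694, Nptn -0.0408, Negr1 -0.0142, Gria1 0.0531, Htr1d 0.15, Drd2 0.34, mt-Nd3 -0.0230, Cspg4 0.0211, Agt 0.0756, Itm2a -0.0475 and Synpr 0.00264. Without vehicle 3 and 5 they were Htr2c -0.0983, Fos 0.22, Egr1 0.19, Arc 0.0341, Npas4 0.0907, Nptn -0.00617, Ddit4 0.00952 and Itm2a -0.0146. In the study's procedure they were Egr1 0.0445, Gria1 0.00203, Htr7 -0.0715, Scgn -0.14 and Synpr 0.0308, and without its weights Htr2a 0.0194, Scgn -0.15 and Synpr 0.0298. In the 15 libraries alone they were Htr2a 0.0100 and Htr2c -0.0248. Within pool D they were Htr2a 0.10, Htr2c -0.0194, Camk2a -0.0295, Pvalb 0.11 and Pthlh -0.0660. Within pool C they were Htr2c -0.0224, Htr1a 0.0506, Bdnf -0.000404, Egr1 0.0797, Dlg4 0.0130, Syn1 0.00986, Negr1 -0.00129, Gria1 0.00127, Sst 0.0564, Slc17a7 0.0299, Htr7 -0.22, Grm4 0.0447, Adra2a -0.0418, Hk1 0.0157, Sulf1 0.0515, Dlx1 -0.0613, Aqp4 -0.00301, Sall1 -0.00395, Itm2a -0.0564, Acta2 -0.26, Synpr 0.0208, Hdc -0.44, Zic1 -0.0799 and Cyb561d1 -0.0173. Synpr alone changed sign in DESeq2 (0.000462), without extraction pool (0.00517), with the stricter filter (0.00203), in the PFC libraries (0.00141) and with DESeq2-type size factors (0.00161).

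With 1 library left out at a time, no gene was called. Ranges that crossed zero were -0.0614 to 0.0542 for Htr2a, -0.31 to 0.29 for Htr2c, -0.19 to 0.0782 for Egr1, -0.00963 to 0.0975 for Snap25, -0.0177 to 0.0528 for Nptn, -0.14 to 0.0223 for Grm2, -0.0616 to 0.0385 for Gria1, -0.0886 to 0.0372 for Pvalb, -0.0153 to 0.0833 for Htr7, -1.11 to 0.0961 for Htr1d, -0.00766 to 0.0872 for Adra2a, -1.53 to 0.18 for Drd2, -0.0758 to 0.0321 for mt-Cytb, -0.0204 to 0.0811 for Itm2a, -0.89 to 2.17 for Scgn and -0.0687 to 0.0691 for Synpr. Of 1086 repeats of 34 list medians, 120 changed sign.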

Other observations

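Enzymes and regulators of cholesterol synthesis, a list chosen after its values were seen, had 2 positive and 21 negative log2 fold changes of 23 in the PFC at 4 weeks. Their median was -0.08, beside -0.01 over all genes tested, and it was -0.09 within pool C and -0.08 within pool D. Mvd, which makes isopentenyl pyrophosphate from mevalonate, lay between 16.7 and 22.4 CPM after psilocybin and between 18.9 and 30.4 CPM after vehicle. Mvd had a log2 fold change of -0.33 (standard error 0.12, unadjusted p = 0.00909, edgeR adjusted p = 1).

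Genes of ependymal cells and cilia, also listed after their values were seen, had 15 positive and 2 negative log2 fold changes of 17, with a median of 0.80. Of these, 5 had an unadjusted p under 0.05, all higher after psilocybin, beside 0.822% of all genes tested in this direction. Since the list was drawn from these same values, that comparison is not a test. The median was 0.22 without psilocybin 7, 0.26 in the 15 libraries alone and -0.38 within pool C. Hydin, a protein of the ciliary central pair, lay between 0.968 and 4.94 CPM after psilocybin and between 0.237 and 1.62 CPM after vehicle, with a log2 fold change of 0.94 (unadjusted p = 0.0113).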
